A study of Mus musculus with 18 samples.

Results

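Transcripts of 9 genes for enzymes of the pentose phosphate pathway and of cytosolic NADPH production were followed in RAW 264.7 cells, an immortalized mouse macrophage line, across 6 conditions. The genes were taken by name: *G6pdx*, *Pgls* and *Pgd* of the oxidative arm, *Rpe*, *Rpia*, *Tkt* and *Taldo1* of the non-oxidative arm, and *Me1* and *Idh1*, which make NADPH outside the pathway. They are 9 of the 56748 genes in the count table, and all 9 passed the filter on low counts that left 13691 genes for testing.

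The pentose phosphate pathway branches from glycolysis at glucose 6-phosphate. Its oxidative arm turns that sugar into a pentose phosphate and reduces NADP to NADPH on the way, and its non-oxidative arm rearranges sugar phosphates, which supplies ribose for nucleotides or returns carbon to glycolysis. In macrophages NADPH serves the reductases that regenerate glutathione and thioredoxin, the phagocyte oxidase, nitric oxide synthase, and the synthesis of fatty acids and sterols.

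The study asked how a phenolic food antioxidant alters the response of macrophages to bacterial and viral signals, and 3 libraries were made in each of the 6 conditions. The authors' column names label all 18 libraries WT. Control cells received no treatment. TBHQ cells received tert-butylhydroquinone at 5 µM and were lysed at the end of 4 h. LPS cells received lipopolysaccharide, a component of Gram-negative bacteria, at 0.1 µg/mL for 12 h, and PIC cells received polyinosinic:polycytidylic acid, a mimic of double-stranded RNA, at 20 µg/mL for 12 h. LPS + TBHQ and PIC + TBHQ cells were given TBHQ at 5 µM first, for 4 h, and the respective stimulus afterwards, for 12 h. The study's design places the control with the 12 h groups, so TBHQ and harvest time cannot be told apart in the comparison of TBHQ alone with the control. TBHQ was dissolved in DMSO. The study describes the control as medium only, and whether the LPS and PIC cells received the carrier is not given in the sources used here, so TBHQ and its carrier cannot be told apart. The study calls the 3 libraries of a condition biological replicates of the same line, and p-values measure the spread between them. The comparisons of TBHQ, LPS and PIC with the control share the control libraries, and those of pretreated with stimulated cells share the LPS or PIC libraries with them.

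Each library held 14423390 to 18851626 counts on genes. The macrophage genes *Lyz2* (61055 to 99994 counts), *Cd14* (22230 to 49158) and *Cd68* (10929 to 15330) were abundant in each of the 18 libraries, whereas *Mrc1*, a mannose receptor of some macrophages, had 6 to 37 counts. Of the other macrophage genes listed, *Csf1r* had 6539 to 17226 counts, *Ptprc* 3845 to 6306, *Adgre1* 636 to 3561, *Itgam* 640 to 2235 and *Fcgr1* 171 to 612. Markers of T cells, B cells, natural killer cells, fibroblasts, epithelium and hepatocytes had 0 to 2 counts in each library, and a count of 0 allows up to 3 counts, for counting error only. The endothelial markers *Cdh5* and *Pecam1* had 0 to 7 counts, and of the neutrophil markers *Ly6g* had 0 and *S100a8* 3 to 67. Levels are given as FPKM (fragments scaled to gene length and library size), which permits a comparison between genes of unequal length. Beside the library's total these FPKM carry 1 further constant per library, lowest in the control and TBHQ libraries (0.943 to 0.954) and highest in the PIC libraries (1.112 to 1.116), so they are not scaled by totals alone. Differences are given as log2 fold change (log2FC) with its SE over n = 3 libraries per condition, and a gene was called higher or lower where the edgeR false discovery rate (FDR) over all tested genes was below 0.05.

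In control cells the per-length level was highest for *Taldo1* (150.0 ± 5.97 FPKM, SD, n = 3), followed by *G6pdx* (107 ± 3.63), *Pgd* (95.6 ± 2.30), *Idh1* (75.4 ± 1.08) and *Tkt* (67.6 ± 1.54). *Pgls* (20.3 ± 0.638), *Rpe* (19.1 ± 0.780), *Me1* (14.1 ± 0.663) and *Rpia* (7.52 ± 0.419) were lower per length. The 9 genes together took 0.230% to 0.236% of all counts in the control libraries, 0.234% to 0.240% with LPS and 0.217% to 0.222% with PIC. The share was 0.327% to 0.332% with TBHQ alone, 0.342% to 0.352% with LPS + TBHQ and 0.318% to 0.325% with PIC + TBHQ, so the 9 libraries with TBHQ lay above the 9 without it. In RNA from whole cultures, a change in the cells that express a gene and a change in RNA per cell cannot be told apart.

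After TBHQ alone, 6 of the 9 genes were higher and 1 was lower, against 14.2% and 14.8% of all tested genes (edgeR, FDR below 0.05). The 9 genes were chosen with earlier results of these data known. The shares of all tested genes are therefore given as description and not as a test. Both stimuli split the 9 genes. With LPS, 3 were higher and 4 lower than in the control, where 24.0% and 24.1% of tested genes were called. PIC gave 3 higher and 5 lower, where 28.6% and 30.1% were called. Pretreatment with TBHQ moved nearly all of them upward in stimulated cells: 8 of 9 were higher in LPS + TBHQ than in LPS (11.7% of tested genes higher, 12.2% lower), and 8 of 9 in PIC + TBHQ than in PIC (15.8% higher, 15.5% lower). None was lower in either comparison in edgeR, in DESeq2 or in limma on log2(FPKM + 1), and 0 were lower at an unadjusted p under 0.05. The number higher was 7 over LPS and 7 over PIC in DESeq2, and 7 over LPS and 8 over PIC in limma. The median log2FC of the 9 genes was 0.41 for LPS + TBHQ against LPS and 0.35 for PIC + TBHQ against PIC, beside 0.0023 and 0.0089 over all tested genes. The changes were small in size: the largest |log2FC| of any of the 9 genes in any of the comparisons was 0.78, and 0 of them passed the study's threshold of an FDR below 0.01 and a |log2FC| above 2.

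**Figure D1:**
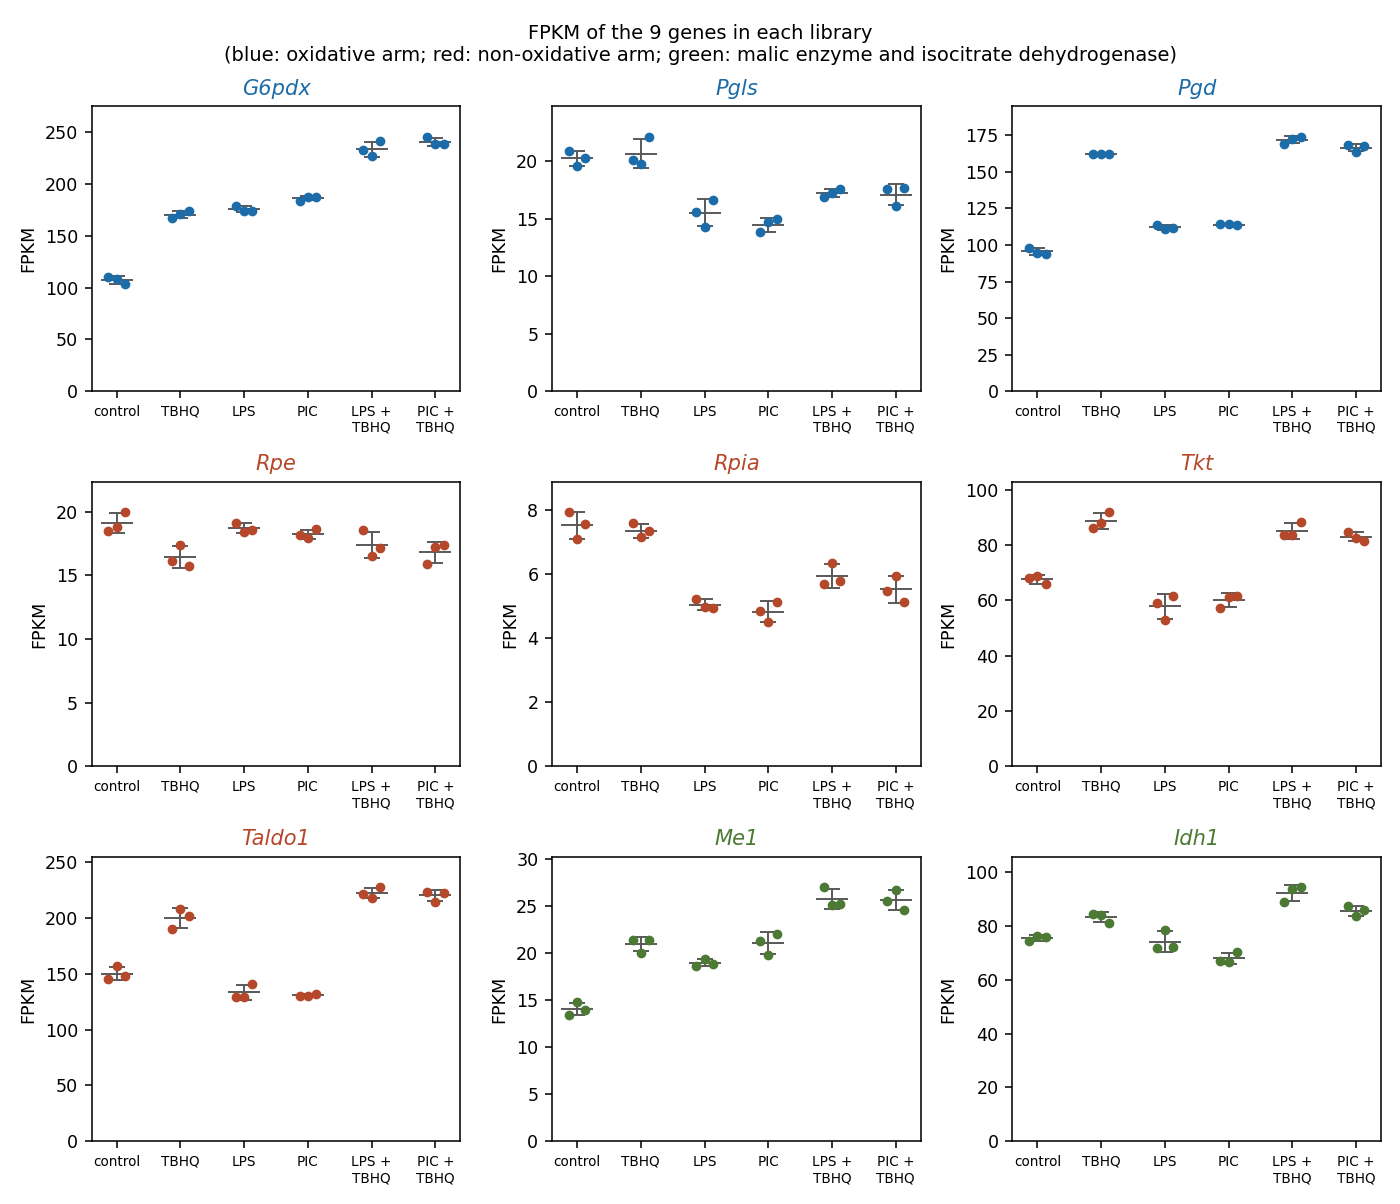
FPKM of each of the 9 genes (vertical axes, starting at 0) in the 18 libraries, grouped by condition. Points are libraries, horizontal marks are means and bars are SD (n = 3); *G6pdx* rises from a mean of 107 in the control to 241 in PIC + TBHQ, while *Rpe* stays between means of 16.4 and 19.1.

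*G6pdx* (ENSMUSG00000031400) codes for glucose-6-phosphate dehydrogenase, the rate-limiting enzyme that commits glucose 6-phosphate to the pathway and makes its first NADPH. Its FPKM was 110.2, 109 and 103 in the control libraries and 167, 171 and 174 after TBHQ alone. It was 179, 174 and 174 with LPS and 184, 188 and 187 with PIC. With TBHQ before the stimulus it was 233, 227 and 241 for LPS and 245, 239 and 239 for PIC. The control libraries lay below all others, each single treatment raised the level to a middle range, and the libraries with both treatments lay above the rest. Among conditions next to each other in level, LPS + TBHQ and PIC + TBHQ overlapped and no others did. Against the control the log2FC was 0.66 ± 0.033 (SE) with TBHQ (FDR = 5.48e-18), 0.70 ± 0.031 with LPS (FDR = 1.29e-19) and 0.78 ± 0.031 with PIC (FDR = 2.71e-21). TBHQ pretreatment raised it 1.33-fold in LPS-treated cells (log2FC 0.41 ± 0.029, FDR = 1.25e-12) and also raised it in PIC-treated cells (0.38 ± 0.016, FDR = 6.53e-12). The mean level in PIC + TBHQ was 2.24 times that in the control.

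*Pgd* (ENSMUSG00000028961) codes for 6-phosphogluconate dehydrogenase, which makes the pathway's other NADPH. The control libraries had 98.2, 94.5 and 94.1 FPKM, and the TBHQ libraries 162, 162 and 163. With LPS the values were 114, 111 and 112, and with PIC 114, 114 and 113. LPS + TBHQ gave 169, 173 and 174 FPKM, and PIC + TBHQ 168, 164 and 168. Here the 9 libraries with TBHQ stood well above the 9 without it, and LPS and PIC overlapped just above the control. TBHQ alone raised *Pgd* 1.70-fold (log2FC 0.76 ± 0.021, FDR = 2.56e-21), against 1.17-fold for LPS (0.22 ± 0.022, FDR = 4.48e-08) and 1.18-fold for PIC (0.24 ± 0.021, FDR = 6.12e-09). The pretreatment raised it 1.53-fold over LPS (0.62 ± 0.015, FDR = 5.64e-19) and 1.47-fold over PIC (0.56 ± 0.015, FDR = 1.14e-17). The rise with PIC alone depended on how libraries were scaled: when libraries were scaled by their totals instead of by TMM, which moved the median log2FC of all tested genes in that comparison from -0.015 to -0.23, the log2FC of *Pgd* was 0.020 (FDR = 0.539). With LPS the log2FC of *Pgd* was as low as 0.13 in the alternative fits.

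*Pgls* (ENSMUSG00000031807), for the lactonase between these dehydrogenases, did not follow them. Its FPKM ranged from 19.6 to 20.9 in the control and from 19.8 to 22.1 with TBHQ, which overlapped (log2FC 0.027 ± 0.055, FDR = 0.76). It fell to 14.3 to 16.7 with LPS (log2FC -0.39 ± 0.067, FDR = 2.53e-07) and to 13.8 to 15.0 with PIC (-0.50 ± 0.043, FDR = 1.01e-09). Pretreated cells had 16.9 to 17.6 FPKM in LPS + TBHQ and 16.1 to 17.7 in PIC + TBHQ, between the stimulus and the control. The difference was called in PIC-treated cells (0.25 ± 0.057, FDR = 0.000712). In LPS-treated cells it was at the threshold (0.15 ± 0.064, FDR = 0.0496), and it was not called by DESeq2 (FDR = 0.0666, with 0.0515 to 0.0699 in the alternatives that did not call it). Without LPS replicate 1 or 2 the FDR for *Pgls* was 0.104 or 0.293, and without LPS + TBHQ replicate 1, 2 or 3 it was 0.0621, 0.098 or 0.141. Without LPS replicate 2 the log2FC of *Pgls* fell to 0.095. Of the 50-base words in its transcripts, 18.9% also occur in *Niban3*, which had 45 to 96 counts per library against 711 to 1422 for *Pgls*.

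In the non-oxidative arm, *Taldo1* (ENSMUSG00000025503) codes for transaldolase, which moves 3-carbon units between sugar phosphates. Its FPKM was 145, 157 and 148 in the control and 190.2, 208 and 201 after TBHQ. LPS libraries had 129, 129.5 and 141, and PIC libraries 130.4, 129.8 and 132. LPS + TBHQ gave 221, 218 and 227, and PIC + TBHQ 223, 215 and 223. The order was therefore stimulus alone, control, TBHQ alone, and stimulus after TBHQ at the top, and these 4 levels did not overlap. The fall was slight with LPS (log2FC -0.18 ± 0.053, FDR = 0.000205) and with PIC (-0.21 ± 0.034, FDR = 1.02e-05). In the alternative fits the log2FC of *Taldo1* with PIC ranged from -0.43 to -0.19. These fits included scaling by library totals, which moved the median log2FC of all tested genes in this comparison to -0.23. The pretreatment raised *Taldo1* 1.66-fold over LPS (0.74 ± 0.045, FDR = 1.93e-17) and 1.70-fold over PIC (0.76 ± 0.021, FDR = 7.99e-18), the largest TBHQ differences among the 9 genes in stimulated cells, whereas TBHQ alone gave 1.33-fold over the control (0.41 ± 0.050, FDR = 1.04e-10).

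*Tkt* (ENSMUSG00000021957) codes for transketolase, which moves 2-carbon units and links the pathway to glycolysis. Control libraries had 68.1, 68.8 and 65.8 FPKM and TBHQ libraries 86.0, 88.0 and 91.9. The values were 59.1, 52.8 and 61.6 with LPS and 57.3, 61.2 and 61.7 with PIC. LPS + TBHQ had 83.5, 83.6 and 88.5, and PIC + TBHQ 84.7, 82.6 and 81.5. As for *Taldo1*, the stimulated libraries lay below the control and the 9 libraries with TBHQ above it. The log2FC was 0.39 ± 0.033 with TBHQ (FDR = 1.61e-09), -0.23 ± 0.067 with LPS (FDR = 1.06e-05) and -0.19 ± 0.038 with PIC (FDR = 0.000165). In the alternative fits, scaling by library totals among them, the log2FC of *Tkt* with PIC ranged from -0.40 to -0.16. Pretreatment raised *Tkt* 1.47-fold over LPS (0.56 ± 0.070, FDR = 1.9e-13) and 1.39-fold over PIC (0.48 ± 0.036, FDR = 9.94e-12).

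The isomerase and the epimerase of the non-oxidative arm had lower levels than *Taldo1* and *Tkt*. *Rpia* (ENSMUSG00000053604), for ribose-5-phosphate isomerase, had 335 to 692 counts per library. Its FPKM was 7.09 to 7.93 in the control and 7.13 to 7.57 with TBHQ, which overlapped (log2FC -0.036 ± 0.053, FDR = 0.74). The level fell to 4.92 to 5.23 with LPS (-0.59 ± 0.053, FDR = 8.48e-09) and to 4.50 to 5.14 with PIC (-0.65 ± 0.071, FDR = 4.31e-10), the largest decreases of the 9 genes with either stimulus. LPS + TBHQ libraries had 5.68 to 6.35 FPKM (0.23 ± 0.056 over LPS, FDR = 0.0144) and PIC + TBHQ libraries 5.12 to 5.94 (0.20 ± 0.081 over PIC, FDR = 0.0351), the latter overlapping with PIC. Both calls for *Rpia* were weak. The first was lost without LPS replicate 3 (FDR = 0.0502) or LPS + TBHQ replicate 2 (FDR = 0.103). The second was lost in DESeq2 (FDR = 0.0764, with 0.0543 to 0.0792 in the alternatives that did not call it), without PIC replicate 1 or 2 (FDR = 0.105 and 0.22) and without PIC + TBHQ replicate 1 or 2 (FDR = 0.0807 and 0.214).

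*Rpe* (ENSMUSG00000026005), for ribulose-phosphate epimerase, was the 1 member of the 9 that was lower after TBHQ alone. It had 18.5 to 19.98 FPKM in the control and 15.7 to 17.4 with TBHQ, without overlap and lower (log2FC -0.22 ± 0.055, FDR = 0.00175). Means in the 6 conditions lay within 1.16-fold of each other, and each pair of conditions next to each other in level overlapped. Neither stimulus gave a call (FDR = 0.613 for LPS and 0.194 for PIC), nor did the pretreatment (log2FC -0.11 ± 0.050, FDR = 0.167 over LPS; -0.11 ± 0.044, FDR = 0.148 over PIC), although each PIC + TBHQ library (15.9 to 17.4 FPKM) lay below each PIC library (17.9 to 18.6). With total library size, *Rpe* was called lower with PIC than in the control (log2FC -0.30, FDR = 1.04e-05).

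*Me1* (ENSMUSG00000032418) codes for the cytosolic malic enzyme, which makes NADPH as it turns malate into pyruvate. The FPKM was 13.5, 14.8 and 13.9 in the control and 21.3, 20.04 and 21.4 with TBHQ. LPS libraries had 18.7, 19.4 and 18.8, and PIC libraries 21.3, 19.7 and 22.0. LPS + TBHQ gave 27.0, 25.1 and 25.2, and PIC + TBHQ 25.5, 26.7 and 24.6. The pattern was that of *G6pdx*: control lowest, each single treatment in between, and both together highest. The log2FC was 0.57 ± 0.049 with TBHQ (FDR = 4.62e-11), 0.42 ± 0.043 with LPS (FDR = 1.43e-08) and 0.57 ± 0.060 with PIC (FDR = 7.65e-12), and pretreatment added 0.44 ± 0.038 over LPS (FDR = 6.84e-09) and 0.29 ± 0.056 over PIC (FDR = 1.23e-05). With PIC the log2FC of *Me1* was as low as 0.35 in the alternative fits. Of the 50-base words in *Me1* transcripts, 21.1% also occur in the processed pseudogene *Gm7049*, which had 0 to 4 counts per library.

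*Idh1* (ENSMUSG00000025950), for the cytosolic isocitrate dehydrogenase that makes NADPH and 2-oxoglutarate, moved less. Its FPKM was 74.2 to 76.3 in the control and 80.9 to 84.6 with TBHQ (log2FC 0.14 ± 0.025, FDR = 0.00586). LPS libraries, at 71.8 to 78.5, overlapped with the control (-0.033 ± 0.046, FDR = 0.522), whereas PIC libraries were lower at 66.6 to 70.2 (-0.17 ± 0.026, FDR = 0.000388). In the alternative fits, scaling by library totals among them, the log2FC of *Idh1* with PIC ranged from -0.39 to -0.14. LPS + TBHQ libraries had 88.9 to 94.4 FPKM (0.32 ± 0.052 over LPS, FDR = 6.65e-08) and PIC + TBHQ libraries 83.7 to 87.5 (0.35 ± 0.030 over PIC, FDR = 8.47e-09). With total library size the log2FC of *Idh1* with LPS was -0.12 and was called (FDR = 0.0104).

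**Figure D2:**
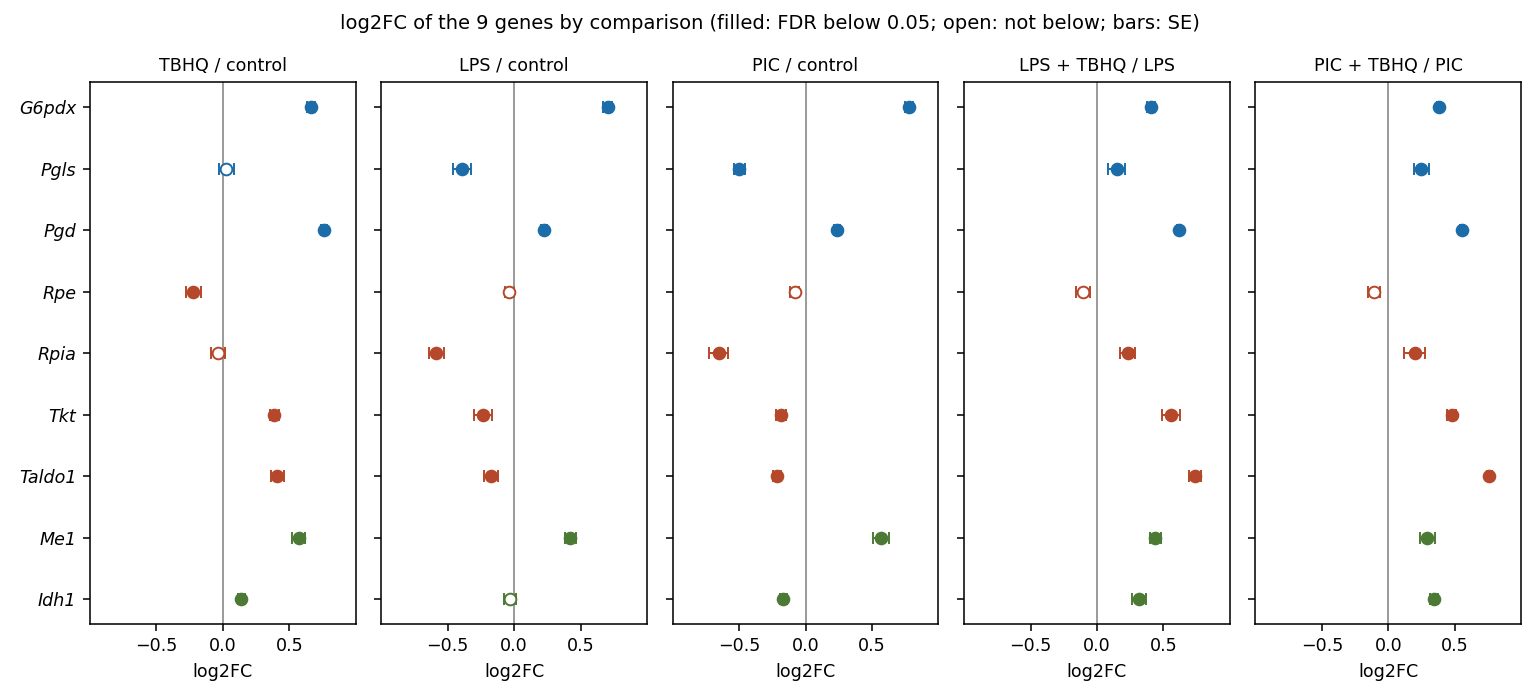
log2FC (horizontal axes) of the 9 genes in 5 comparisons, with bars for the SE from the replicates' log2 counts scaled to library size; filled points have an FDR below 0.05 in edgeR and open points do not. The stimuli alone leave genes on both sides of 0, and with pretreatment 8 of 9 have filled points to the right of 0 in either stimulus (7 of 9 called in DESeq2).

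PIC and LPS were also compared with each other. Of the 9 genes, 1 was higher in PIC and 1 was lower, near the shares over all tested genes (14.9% and 12.8%). With total library size, which moved the median log2FC of all tested genes in this comparison from -0.0087 to -0.14, 6 were lower. *Me1* was higher in PIC (log2FC 0.14 ± 0.049, FDR = 0.0322), a call that was lost without LPS replicate 1 (FDR = 0.103) or 3 (FDR = 0.0728) and without PIC replicate 1 (FDR = 0.081) or 3 (FDR = 0.163). With total library size the log2FC of *Me1* was 0.013 (FDR = 0.871). *Idh1* was lower in PIC (-0.14 ± 0.050, FDR = 0.00913), a call that was lost without LPS replicate 2 (log2FC -0.087, FDR = 0.125) or PIC replicate 2 (FDR = 0.0507). *G6pdx* was higher in each PIC library than in each LPS library, but the difference was not called in edgeR (0.076 ± 0.014, FDR = 0.0782). DESeq2 called it (FDR = 0.02, with 0.04 to 0.042 in the other alternatives that called it), whereas with total library size its direction turned and it was not called (log2FC -0.054, FDR = 0.169). The effect of the pretreatment in PIC-treated cells minus that in LPS-treated cells was tested directly and was called for 0 of the 9 genes in edgeR, DESeq2 and limma, where 0.833% of tested genes were called higher and 1.01% lower in edgeR. At an unadjusted p under 0.05 there was 1, *Me1* (difference in log2FC -0.15 ± 0.068, unadjusted p = 0.0386, FDR = 0.319, edgeR).

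The genes whose log2 counts, scaled to library size, were most like those of each member over the 18 libraries were sought among 10450 other genes with a mean of at least 50 counts. Libraries of a condition share their treatment, so these Pearson correlations describe the 6 conditions and carry no test. *G6pdx* was closest to *Layn* (r = 0.991), *Abcc1*, an exporter of glutathione conjugates (r = 0.987), and *Srxn1*, for sulfiredoxin (r = 0.975). *Me1* was closest to *G6pdx* itself (r = 0.966), *Srxn1* (r = 0.965) and *Abcc1* (r = 0.961). *Pgd* was closest to *Gsr*, for the NADPH-using glutathione reductase (r = 0.986), *Cyb5a* (r = 0.985) and *Gclm*, for the regulatory subunit of the enzyme that starts glutathione synthesis (r = 0.978). *Tkt* was closest to *Akr1b3* (r = 0.966), *Coro1c* (r = 0.955) and *Taldo1* (r = 0.948), and *Taldo1* to *Creg1* (r = 0.976), *Abcc4* (r = 0.959) and *Ctnnb1* (r = 0.958). *Idh1* was closest to *Mfsd6* (r = 0.960), *Mgst2* (r = 0.946) and *Pcx*, for pyruvate carboxylase (r = 0.943). Other genes headed the lists of the members that fell with the stimuli and were not called after TBHQ alone. *Pgls* was closest to *Ssbp4* (r = 0.973), *Mrpl12* (r = 0.971) and *Noc2l* (r = 0.969), and *Rpia* to *Scd1*, for a desaturase of fatty acids (r = 0.977), *Zbtb12* (r = 0.973) and *Gpsm2* (r = 0.967). *Rpe*, with *Mtus1* (r = 0.870), *Snapin* (r = 0.837) and *Pdk1* (r = 0.822), had no gene as close. Between members, r was 0.905 for *Pgls* and *Rpia* and -0.793 for *Pgd* and *Rpe*.

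The wider network was described through 63 listed genes, of which 58 were tested. They were chosen by role, with earlier results of these data known, so their counts are description and not a test. The other 5 had few counts: *G6pd2*, a retrogene copy of *G6pdx*, 0 to 1, *Tktl1* 0 to 10, *Tktl2* 0, *Me3* 0 to 1 and *Nnt*, the mitochondrial transhydrogenase, 1 to 13. The counts of the lists stand beside the shares of all tested genes called higher and lower: 14.2% and 14.8% for TBHQ alone, 24.0% and 24.1% for LPS, 28.6% and 30.1% for PIC, 11.7% and 12.2% for pretreatment over LPS, and 15.8% and 15.5% for pretreatment over PIC. The median log2FC of all tested genes lay between -0.015 and 0.0089 in these 5 comparisons. Of the 50-base words in *G6pdx* transcripts, 6.46% also occur in *G6pd2*.

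Among 11 reductases that use NADPH, TBHQ alone raised 8 and lowered 1, and pretreatment raised 8 over LPS and 9 over PIC, with 1 lower in the latter comparison. Their median log2FC was 0.76, 0.67 and 0.64. With LPS alone 7 were higher and with PIC alone 6 were higher and 3 lower. The reductase of thioredoxin, *Txnrd1*, rose from a mean of 63.1 FPKM in the control to 156 with TBHQ (2.46-fold, SE 0.037 on the log2 scale, FDR = 1.36e-27), 98.7 with LPS (log2FC 0.64 ± 0.034, FDR = 3.31e-19) and 122 with PIC (0.93 ± 0.034, FDR = 2.03e-24). The carbonyl reductase *Cbr3* had 7.20 FPKM in the control and 19.8 with TBHQ (1.46 ± 0.120, FDR = 3.31e-14), and it rose again over LPS (1.24 ± 0.066) and over PIC (1.47 ± 0.085). The aldo-keto reductase *Akr1b8* rose from 133 FPKM in LPS to 275 in LPS + TBHQ (1.04 ± 0.043, FDR = 6.74e-21), and the biliverdin reductase *Blvrb* from 39.3 in PIC to 87.3 in PIC + TBHQ (1.16 ± 0.027, FDR = 5.15e-21).

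Of 14 listed genes for glucose entry and upper glycolysis, 7 were lower after TBHQ alone and 0 were higher in edgeR, DESeq2 and limma, with 1 higher at an unadjusted p under 0.05. LPS raised 7 and lowered 3, and PIC raised 10 and lowered 3. Pretreatment split the list, with 5 higher and 7 lower in either stimulus. The median log2FC was -0.096 for TBHQ, 0.17 for LPS, 0.26 for PIC, -0.014 for pretreatment over LPS and -0.070 over PIC. *Pfkl*, a phosphofructokinase, was lower with TBHQ (22.1 against 38.3 FPKM, log2FC -0.80 ± 0.063, FDR = 6.01e-16), as was *Tpi1*, for triose-phosphate isomerase (286 against 419, -0.56 ± 0.036, FDR = 7.57e-16). The glucose transporter *Slc2a1* rose from 77.8 FPKM in the control to 198 with LPS (1.34 ± 0.068, FDR = 9.38e-25) and 264 with PIC (1.75 ± 0.053, FDR = 1.23e-28), and was 136 in LPS + TBHQ (-0.54 ± 0.058 against LPS, FDR = 5.35e-13) and 184 in PIC + TBHQ (-0.51 ± 0.044 against PIC, FDR = 1.24e-12). *Pfkfb3*, which makes the activator of phosphofructokinase, was also raised by the stimuli (1.19 ± 0.108 with LPS, 1.66 ± 0.118 with PIC) and lower after pretreatment (-0.98 ± 0.073 over LPS, -0.998 ± 0.083 over PIC). *Tigar*, a phosphatase that opposes it, was higher after pretreatment (0.34 ± 0.063, FDR = 0.000369 over LPS; 0.41 ± 0.099, FDR = 4.06e-05 over PIC).

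Of 14 genes for other users of NADPH, TBHQ alone raised 7 and lowered 5, each stimulus raised 5 and lowered 7, and pretreatment raised 7 and lowered 4 over LPS and raised 4 and lowered 4 over PIC. The median log2FC was 0.061 for TBHQ, -0.13 for LPS, -0.12 for PIC, 0.080 for pretreatment over LPS and 0.015 over PIC. *Nos2*, the inducible nitric oxide synthase, went from 32.0 FPKM in the control to 164 with LPS (log2FC 2.35 ± 0.084, FDR = 9.57e-30) and 239 with PIC (2.88 ± 0.067, FDR = 9.46e-33), and was 118 in LPS + TBHQ (-0.47 ± 0.073, FDR = 3.22e-10) and 159.6 in PIC + TBHQ (-0.57 ± 0.041, FDR = 2.27e-12). *Cybb*, the catalytic subunit of the phagocyte oxidase, was lower with TBHQ (57.1 against 94.7 FPKM, -0.73 ± 0.059, FDR = 3.09e-18) and higher with LPS (192, 1.02 ± 0.045, FDR = 1.28e-23) and PIC (331, 1.79 ± 0.047, FDR = 2.9e-31). *Fasn*, the fatty acid synthase, was higher with TBHQ (74.0 against 50.2 FPKM, 0.56 ± 0.039, FDR = 8.99e-14) and over LPS (0.38 ± 0.055, FDR = 1.12e-09). In the direct test between stimuli, where 0.833% of all tested genes were higher and 1.01% lower, the pretreatment effect was called for 3 of these 14 genes: *Cyba* (0.30 ± 0.069, FDR = 0.00223), *Cybb* (-0.22 ± 0.028, FDR = 0.00647) and *Rrm2* (-0.31 ± 0.083, FDR = 0.0097), in edgeR 1 higher and 2 lower. DESeq2 called 1 higher and 3 lower, and limma 0 higher and 2 lower, so the call of *Cyba* was lost in limma. At an unadjusted p under 0.05 in edgeR 2 were higher and 4 lower.

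Of 11 listed genes for ribose use and side branches 8 were tested. TBHQ alone raised 1 and lowered 2, LPS raised 2 and lowered 2, PIC raised 2 and lowered 4, and pretreatment raised 1 in either stimulus and lowered 0 (edgeR, DESeq2 and limma, and 0 at an unadjusted p under 0.05). The median log2FC was -0.083 for TBHQ, -0.052 for LPS, -0.28 for PIC, 0.065 for pretreatment over LPS and 0.053 over PIC. The 1 raised by pretreatment was *H6pd*, the dehydrogenase that makes NADPH from glucose 6-phosphate inside the endoplasmic reticulum. It had 5.19 FPKM in the control and 9.09 with TBHQ (log2FC 0.80 ± 0.053, FDR = 7.46e-12), 5.21 in LPS and 7.71 in LPS + TBHQ (0.56 ± 0.092, FDR = 4.67e-08), and 4.203 in PIC and 7.31 in PIC + TBHQ (0.81 ± 0.037, FDR = 2.26e-11). The synthetases *Prps2* and *Prps1*, which activate ribose 5-phosphate for nucleotides, fell with the stimuli: *Prps2* from 13.1 FPKM to 7.44 with LPS (-0.83 ± 0.120, FDR = 5.12e-11) and 5.66 with PIC (-1.23 ± 0.056, FDR = 2.04e-15), and *Prps1* from 32.1 to 24.5 (-0.40 ± 0.056, FDR = 1.47e-07) and 23.2 (-0.48 ± 0.045, FDR = 1.53e-09). *Dera*, for an aldolase that breaks down deoxyribose 5-phosphate, went the other way, from 5.51 FPKM to 7.70 with LPS (0.48 ± 0.062, FDR = 2.46e-09) and 8.23 with PIC (0.56 ± 0.032, FDR = 2.38e-11). *Pgm2*, for a phosphopentomutase, was higher too (0.19 ± 0.092, FDR = 0.0212 with LPS; 0.37 ± 0.036, FDR = 1.01e-05 with PIC).

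Of 13 listed genes for other enzymes of NADPH and NADP 11 were tested. TBHQ alone raised 4 and lowered 1, LPS raised 5 and lowered 4, PIC raised 4 and lowered 3, and pretreatment raised 3 and lowered 1 over LPS and raised 3 and lowered 3 over PIC. The median log2FC was 0.071 for TBHQ, -0.055 for LPS, -0.035 for PIC, 0.066 for pretreatment over LPS and -0.017 over PIC. *Mthfd2*, of mitochondrial folate metabolism, rose from 44.4 FPKM in the control to 76.3 with LPS (log2FC 0.77 ± 0.029, FDR = 8.91e-20) and 75.4 with PIC (0.75 ± 0.012, FDR = 1.11e-19). *Aldh1l2*, which makes NADPH from formyl-tetrahydrofolate in mitochondria, was lower with TBHQ (5.21 against 10.3 FPKM, -0.98 ± 0.081, FDR = 2.96e-14) and higher with LPS (15.97, 0.63 ± 0.103, FDR = 3.67e-11). *Idh2*, the mitochondrial counterpart of *Idh1*, was lower with LPS (-0.45 ± 0.046, FDR = 3.54e-10) and with PIC (-0.58 ± 0.042, FDR = 4.06e-13) and higher after pretreatment (0.15 ± 0.045, FDR = 0.0148 over LPS; 0.20 ± 0.043, FDR = 0.00104 over PIC).

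The 9 genes lie on 8 chromosomes, *Rpe* and *Idh1* both on chromosome 1. In the coordinates of the authors' files *G6pdx* spans chrX:73453089-73472800, *Pgd* chr4:149234448-149251228, *Tkt* chr14:30270316-30296677, *Taldo1* chr7:140972112-140982881 and *Me1* chr9:86463424-86578006. The submitters' notes name both GRCm38 and mm39, and none of the 9 genes had the start that GENCODE gives for GRCm38, so these positions were not joined with the promoter windows below.

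Because 6 of the 9 genes rose after TBHQ alone, the RefSeq promoter windows of all 9 (GRCm38.p6, 250 bases before to 50 bases after a transcript's start) were searched on both strands for the core of the antioxidant response element, TGACNNNGC, the site bound by Nrf2 with a small Maf protein. All 9 genes had a promoter window by name, 12 windows in all, as *Pgd*, *Me1* and *Idh1* had 2 each. The core was found in 3 of the 12 windows, 1 each of *G6pdx*, *Pgd* and *Me1*, and in 12.4% of all 32851 windows. The matches are printed in capitals with 10 bases on either side, 5′ to 3′ on the gene's strand, at chrX:74428919-74428947 (minus strand, 57 bases before the start, the core on the strand opposite to the gene), chr4:149166061-149166089 (minus strand, 3 bases after the start) and chr9:86695902-86695930 (minus strand, 6 bases before the start).
G6pdx: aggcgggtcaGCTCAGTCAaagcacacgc
Pgd: atttcagagcTGACATTGCactgatcgga
Me1: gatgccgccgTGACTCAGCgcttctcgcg
The windows of *Taldo1*, *Tkt*, *Idh1*, *Pgls*, *Rpia* and *Rpe* held no match to these letters. Sequence outside the windows was not searched. The core of the interferon-stimulated response element, GAAANNGAA, was found in the window of *Rpe* alone among the 9 genes and in 8.56% of all windows, and a sterol element, TCACNCCAC, in 0 of the 12 windows and in 1.24% of all. A match describes the sequence, and binding at these windows was not measured here. Whether Nrf2 had a part in any of the changes was not tested.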

How the data were processed

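RNA-seq libraries came from poly(A) RNA of 18 cultures. Per the submitters' notes the tools were HISAT2 2.0.5, featureCounts 1.5.0-p3 and StringTie 1.3.3b. The authors deposited raw gene counts with no normalization, and the authors' FPKM, which equal counts over gene length and library total multiplied by 1 constant per library (0.943 to 1.12). Gene length in bases is the authors' value.

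Counts went through filterByExpr and TMM scaling into edgeR 4.0.16 (glmQLFit, glmQLFTest; R 4.3.3) in 1 fit over 18 libraries, with Benjamini-Hochberg adjustment over 13691 genes. Replicates were treated as independent. The SE is that of the replicates' log2 scaled counts (CPM, prior count 2). The common dispersion was 0.00192. The fit was also run on simulated data with another dispersion and few changed genes, which cannot show how it performs on these data. Alternatives were DESeq2 1.42.0, limma 3.58.1 on log2(FPKM + 1) and log2(FPKM + 0.1), other scalings, filters and thresholds, the replicate number as a block, and leaving out each library. Motifs and shared words were counted in Python 3.11.15 (pandas 2.3.3), and figures were drawn with matplotlib 3.10.9.

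The members and lists were chosen with earlier results of these data known. From each list and comparison at most 3 genes were eligible to be named, those with the largest |log2FC|, provided that they were called, averaged 50 counts or more and had no overlap between libraries (not asked of the difference between pretreatment effects), and also the 3 genes most like each member. *G6pd2*, *Tktl1*, *Tktl2*, *Me3*, *Nnt*, *Pgm2* and the PIC value of *Idh2* were named after their values were seen. Protein and metabolite levels were not analysed here.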

Additional observations from a re-analysis of the deposited data

How the results depend on the processing

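Of 63 results for a member in a comparison, 49 kept their direction when called and their side of the FDR threshold in each alternative fit and without any 1 library, and 14 did not, 8 of them in PIC against LPS. At the study's threshold of an FDR below 0.01 and a |log2FC| above 2, each nonzero count of members became 0: those higher with TBHQ, LPS or PIC against the control, those lower in the same 3 comparisons, those higher in LPS + TBHQ against LPS and in PIC + TBHQ against PIC, and both for PIC against LPS. The number higher in PIC than in LPS, 1, became 2 with DESeq2, RLE size factors, limma on log2(FPKM + 1) and limma on log2(FPKM + 0.1), and 0 with edgeR on the groups compared only, total library size, no filter on low counts, or an FDR below 0.01. It was 0 to 1 when 1 library was left out. The number lower in PIC than in LPS, 1, became 6 with total library size, and it was 0 to 1 when 1 library was left out. *Pgd* in PIC against LPS, at a log2FC of 0.016 and not called, reversed to -0.11 and was called lower (FDR = 0.00118) with total library size, which leaves in the library scaling that TMM removes. That setting moved the median log2FC of all tested genes in PIC against LPS from -0.0087 to -0.14, and the share of called genes that were higher from 53.7% to 18.4%. The same share moved from 49.8% to 35.0% for LPS and from 48.7% to 26.4% for PIC against the control, from 48.9% to 59.5% for LPS + TBHQ against LPS, from 50.6% to 70.3% for PIC + TBHQ against PIC and from 45.2% to 76.1% for the difference between both pretreatment effects. For that difference 252 genes were called in edgeR, 403 in DESeq2, 380 without a filter and 147 in limma on log2(FPKM + 0.1). With the replicate number as a block (replicate block) 6 members were higher and 1 lower after TBHQ alone, and no call of a member changed. In their deviations from the condition means, libraries with the same number correlated at -0.044 to 0.065. Those with different numbers correlated at -0.052 to 0.051, and 6 of 18 libraries correlated best with their own number. These correlations cannot show whether libraries of the same number shared a plate or a day. Where no other cause is named, the cause was not tested. *Rpia* had the fewest counts of the 9 genes, 335 to 692 per library, and how far depth limits its differences was not tested.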
